A study of Rattus norvegicus with 6 samples.

Results

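Matricellular glycoproteins are secreted proteins that sit in the extracellular matrix and act on cells through receptors more than they bear load. The 10 genes described here were taken by symbol: Fn1, Sparc, Sparcl1, Thbs1, Thbs2, Thbs3, Tnc, Postn, Spp1 and Tgfbi. Each matched 1 row, so 10 of the 17525 genes in the deposited table are members. They were read in primary ovarian granulosa cells, which line the follicle and nurse the oocyte, from SD rats. Per the series' design text, the animals were 21 days old, received 60 IU of PMSG (a gonadotropin that drives follicle growth), and were killed 48 h later, after which the cells were dispersed and cultured. Those steps are described for the series as a whole, so both of its groups share them. By their titles, 3 libraries are ATR and 3 are Control. The title of the series speaks of the herbicide atrazine, ovarian inflammation and fibrosis. The sources used here give no dose or duration and do not spell out ATR.

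Columns of the ATR group alone are used, and the Control libraries are not analysed here. No value below is therefore an effect of an exposure. The 3 ATR libraries held 19020464, 18677194 and 19170515 reads after rounding. Nothing in the labels says that they came from separate animals or cultures, so their spread may be technical. Levels are given on 2 scales. TPM corrects reads for transcript length and is used to set genes side by side, and CPM (reads relative to the scaled library size) is used to compare libraries for 1 gene.

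Fibronectin, the thrombospondins, tenascin-C, periostin, osteopontin and SPARC are known for being made during tissue remodelling and repair. They reach the cell through integrins, syndecans, CD44, CD36 and CD47. Thrombospondin-1 can also release TGF-beta from its latent form, and SPARC handles collagen outside the cell. In the follicle such proteins belong to the matrix that granulosa cells lay down or meet.

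Of the 9 granulosa markers listed, 7 reached a mean of 1 TPM, beside 71.4% of all genes. Inha (inhibin alpha) stood, in the order ATR 1, ATR 2, ATR 3, at 522, 427 and 378 TPM and Foxl2 at 63.6, 53.8 and 48.0 TPM. Gja1 (connexin 43) led the list at 1821 to 2036 TPM, with Inhba after Inha at 279.8 to 284 TPM. Amh had 0, 2 and 1 reads and Cyp19a1 (aromatase) 1, 1 and 2 reads, so both were near the counting limit. Transcripts listed as markers of other cells were detected too. Beside the same 71.4% of all genes, 6 of 8 surface epithelium markers reached 1 TPM. So did 7 of 7 stromal fibroblast markers and 7 of 7 smooth muscle and pericyte markers. Summed by list, in that order, these markers made 2122 to 2277, 3005 to 3525 and 16340 to 17680 TPM per library. The granulosa list made 2772 to 3177 TPM, most of it Gja1 at 1821 to 2036 TPM. Fshr, another marker of that list, stood at 7.38, 5.25 and 4.77 TPM. Tagln and Acta2, actin-related genes that cultured cells of many kinds express, held 97.1% to 97.4% of the smooth muscle sum, and the other 5 genes made 426 to 474 TPM, led by Mcam at 190.1 to 222 TPM. Upk3b, Krt8 and Lrrn4 led the surface epithelium list at means of 1403, 405 and 167 TPM, and Col1a1, Col14a1 and Thy1 led the stromal list at 2885, 301 and 70.0 TPM. Leukocyte markers summed to 95.1 to 120 TPM, led by Lyz2, Cd14 and Cd68 at 74.0, 19.5 and 12.7 TPM. The endothelial markers were led by Kdr, Tek and Vwf at 3.28, 0.683 and 0.137 TPM, and Pecam1 had 0, 3 and 1 reads. The theca markers Lhcgr, Cyp17a1 and Insl3 stood at 0.157, 0.143 and 0.060 TPM. In such bulk RNA, fewer cells of a type and less RNA per cell cannot be told apart, and which cells made each member's transcripts was not tested.

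The members ranged over more than 4 orders of magnitude, from Sparc to Sparcl1. The order by mean TPM was Sparc, Fn1, Thbs1, Spp1, Postn, Tnc, Thbs3, Tgfbi, Thbs2 and Sparcl1. Of the 10 members, 9 reached a mean of 1 TPM, against 71.4% of all genes, and 4 reached 100 TPM, against 10.7%. Their median was 79.3 TPM, and that of all genes was 10.1 TPM. Together the members held 1.46% ± 0.0378 (SD, n = 3) of all TPM. Sparc, Fn1 and Thbs1 alone made up 94.1% ± 0.198 (SD, n = 3) of that sum, so the set was carried by 3 of its genes.

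**Figure D1:**
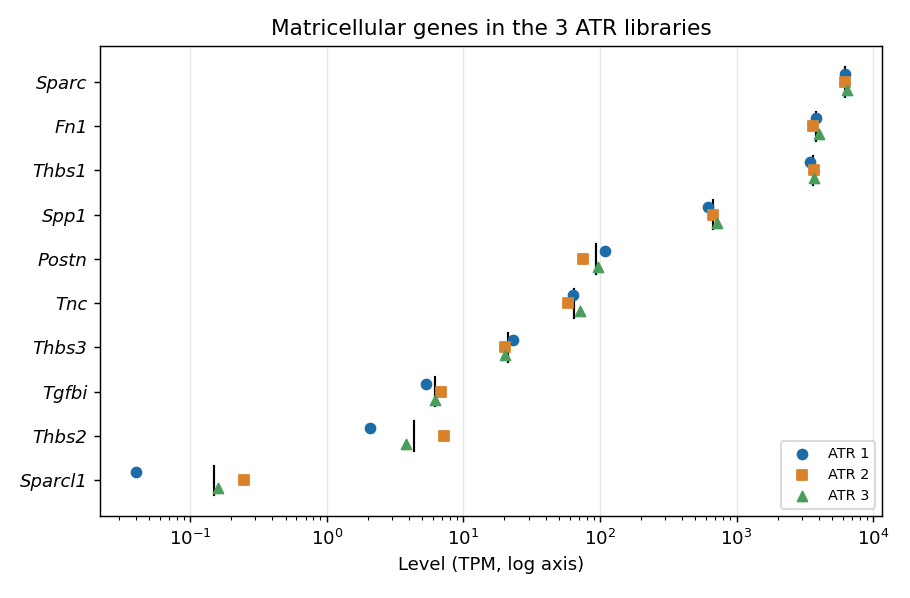
TPM of the 10 matricellular genes (log axis) in ATR 1 (circles), ATR 2 (squares) and ATR 3 (triangles), with the mean as a vertical bar. Sparc, Fn1 and Thbs1 lie above 3000 TPM in each library, while Sparcl1 lies at 0.04 to 0.25 TPM.

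Among neighbours in this order, the ranges of 2 pairs overlapped. Fn1 exceeded Thbs1 in ATR 1 and ATR 3, but in ATR 2 the Fn1 to Thbs1 ratio of TPM was 0.989. Tgfbi exceeded Thbs2 by 2.57 times in ATR 1 and 1.61 times in ATR 3, and the ratio was 0.961 in ATR 2. The other 7 neighbouring pairs kept their order in 3 of 3 libraries. The closest of these was Postn over Tnc, at 1.71, 1.29 and 1.36 times.

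Sparc, a calcium-binding glycoprotein that binds collagen, was the highest member. In the same order of libraries it stood at 6207, 6203 and 6383 TPM, a mean of 6264 ± 103 TPM (SD, n = 3), and ranked 5 of 17525 genes. The 3 libraries lay within 1.03 times of each other. Its relative Sparcl1 (hevin) shares the family's collagen-binding and calcium-binding parts. It had 1, 6 and 4 reads, or 0.04, 0.25 and 0.16 TPM. On their means Sparc exceeded Sparcl1 by 41760 times, with an exact 95% interval from 23340 to 83660 that covers the counting error of the 11 Sparcl1 reads alone. These relatives were thus the highest and the lowest member.

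The 250 bases before the annotated starts of these relatives are shown because their levels lie at the extremes of the set. They come from RefSeq on build GRCr8, where 8 of the 10 members matched, and read 5′ to 3′ along the gene. Capitals mark matches on either strand to any of 5 motifs. They are the core promoter motif TATAAA, the NF-Y motif CCAAT, the Sp1 motif GGGCGG, the AP-1 motif TGANTCA and the TEAD motif GGAATG. These motifs were chosen with the sequences in view, and no 2 of them share a match here.
Sparc, chr10:40038817-40039066, minus strand: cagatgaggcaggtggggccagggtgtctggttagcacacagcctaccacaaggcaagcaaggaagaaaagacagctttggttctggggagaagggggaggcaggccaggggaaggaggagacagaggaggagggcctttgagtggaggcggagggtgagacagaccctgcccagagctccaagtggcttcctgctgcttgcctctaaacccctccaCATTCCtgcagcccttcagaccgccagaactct
Sparcl1, chr14:5937234-5937483, plus strand: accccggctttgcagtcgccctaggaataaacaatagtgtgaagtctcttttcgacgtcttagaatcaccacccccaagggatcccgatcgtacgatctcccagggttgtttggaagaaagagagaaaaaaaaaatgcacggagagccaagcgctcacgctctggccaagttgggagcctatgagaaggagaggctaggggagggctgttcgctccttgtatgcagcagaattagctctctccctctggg
The Sparc window held GGAATG on the reverse strand, 33 to 28 bases before the start, and none of the other motifs. The Sparcl1 window held none of the 5. GGAATG occurs in 12.1% of the 33469 windows of this length in the table, TATAAA in 12.9%, CCAAT in 34.0%, GGGCGG in 30.5% and TGANTCA in 6.34%. The windows were 60.0% and 52.4% G or C, against a median of 51.2%. A match describes letters alone.

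Fn1 encodes fibronectin, which cells assemble into fibrils through integrin alpha 5 beta 1. It stood at 3848, 3635 and 3986 TPM, a mean of 3823 ± 177 TPM (SD, n = 3). ATR 3 was the highest library and ATR 2 the lowest. By reads, Fn1 ranked first of all genes in each library, with 274335, 260504 and 291815 reads. It alone took 1.45% ± 0.0644 (SD, n = 3) of all reads. Fn1 gave 3.96 times as many reads per TPM as Sparc, a ratio that follows transcript length, so it led by reads and stood at rank 12 by mean TPM. Its counts are therefore the most precise of the set.

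**Figure D2:**
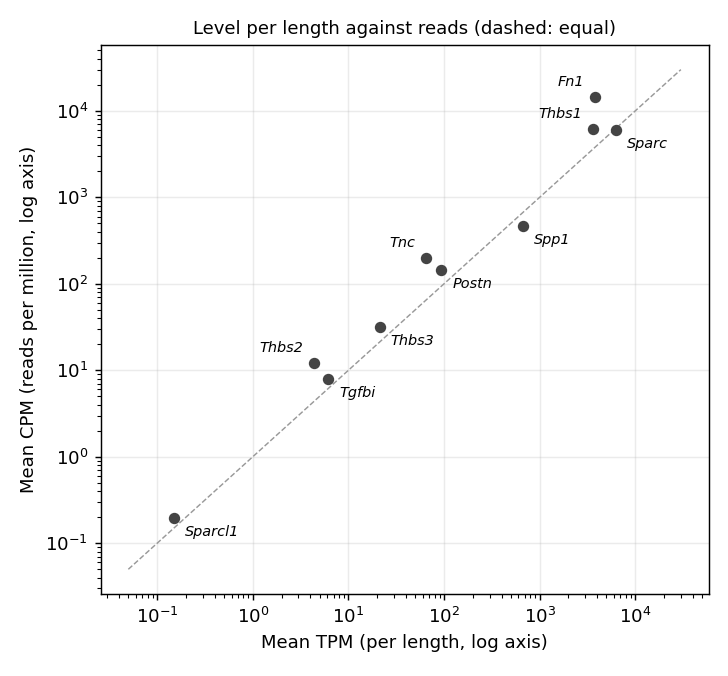
Mean CPM against mean TPM of the 10 members (both log axes); the dashed line marks equal values. Fn1, Tnc and Thbs2 lie furthest above the line, with more reads for their level, while Spp1 and Sparc lie below it.

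The thrombospondins also differed widely among themselves. Thbs1, which binds CD36 and CD47 and restrains vessel growth, stood at 3443, 3674 and 3704 TPM, a mean of 3607 ± 143 TPM (SD, n = 3) at rank 13. ATR 1 was the lowest library. Thbs3, a pentameric family member known from cartilage and bone, stood at 23.2, 20.4 and 20.1 TPM. Thbs2, the trimeric relative of Thbs1 that also restrains vessel growth, stood at 2.09, 7.20 and 3.82 TPM. Thbs1 exceeded Thbs3 by 149, 181 and 184 times and Thbs2 by 1648, 510 and 970 times. This order of the family held in 3 of 3 libraries, but the margin of Thbs3 over Thbs2 varied from 11.1 times in ATR 1 to 2.83 times in ATR 2.

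The windows before the starts of Thbs1 and Thbs3 are shown with the same motifs in capitals, since these paralogues differ over 100 times in level.
Thbs1, chr3:125510000-125510249, plus strand: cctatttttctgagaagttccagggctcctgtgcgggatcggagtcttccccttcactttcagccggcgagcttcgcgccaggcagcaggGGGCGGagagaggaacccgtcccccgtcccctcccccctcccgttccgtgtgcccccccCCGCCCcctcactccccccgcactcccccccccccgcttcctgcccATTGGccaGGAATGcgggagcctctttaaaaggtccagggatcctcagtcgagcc
Thbs3, chr2:176919349-176919598, plus strand: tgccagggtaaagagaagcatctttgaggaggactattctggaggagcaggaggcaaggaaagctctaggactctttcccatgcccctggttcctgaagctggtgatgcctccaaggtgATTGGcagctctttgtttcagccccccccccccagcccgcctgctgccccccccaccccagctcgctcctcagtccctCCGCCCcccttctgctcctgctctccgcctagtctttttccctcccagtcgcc
Both windows held GGGCGG, and both held CCAAT on the reverse strand, 55 to 51 bases before the start in Thbs1 and 131 to 127 in Thbs3. The Thbs1 window held another GGGCGG and also GGAATG, 47 to 42 bases before the start. Neither held TATAAA. The windows were 67.6% and 61.6% G or C. Over the 8 matched members, GGAATG was found in 2 (Sparc and Thbs1), TATAAA in 3, CCAAT in 2, GGGCGG in 4 and TGANTCA in 0. A window without a match says only that these letters are not in it.

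Spp1, which encodes osteopontin, an integrin and CD44 ligand of bone and of activated macrophages, was the fourth member by level. It stood at 623, 678 and 725 TPM, a mean of 675 ± 51.1 TPM (SD, n = 3). ATR 1 was lowest and ATR 3 highest. The macrophage markers Cd68 at 12.3, 14.8 and 11.0 TPM and Csf1r at 2.82, 3.24 and 3.23 TPM were far below it in each library. Ptprc, the pan-leukocyte gene, stood at 0.88, 0.69 and 0.98 TPM. Lyz2 at 60.2, 78.6 and 83.2 TPM had the same order of libraries as Spp1, while Cd68, Cd14 and Csf1r did not. By CPM, that order was found in 16.2% of genes with at least 30 reads, Sparc and Thbs1 among them. The part of macrophages in the Spp1 values was not tested.

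Postn and Tgfbi encode the fasciclin-domain proteins periostin and TGF-beta-induced protein. Periostin helps to cross-link collagen and is a marker of activated fibroblasts. It stood at 109, 75.6 and 97.1 TPM, a mean of 94.0 ± 17.0 TPM (SD, n = 3), with ATR 1 highest and ATR 2 lowest. Tgfbi, named for its induction by TGF-beta, stood at 5.37, 6.92 and 6.17 TPM, a mean of 6.15 ± 0.775 TPM (SD, n = 3), from 129, 167 and 152 reads. Postn exceeded Tgfbi by 20.3, 10.9 and 15.7 times.

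The window before Postn is shown because this gene differed between libraries and its window held TATAAA close to the start.
Postn, chr2:140677811-140678060, plus strand: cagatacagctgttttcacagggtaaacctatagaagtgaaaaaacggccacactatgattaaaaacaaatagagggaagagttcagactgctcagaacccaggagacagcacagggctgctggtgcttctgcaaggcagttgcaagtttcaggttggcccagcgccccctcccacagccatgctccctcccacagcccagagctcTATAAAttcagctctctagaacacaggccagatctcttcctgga
TATAAA lay 44 to 39 bases before the start. In the windows of Spp1 and Tnc, the others with this motif, it lay 204 to 199 and 208 to 203 bases before the start. The search took the exact letters TATAAA alone. The Tnc window also held the near match TATATAA, close to its start. No other of the 5 motifs was found in the Postn window.

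Tnc encodes tenascin-C, a large hexameric protein of wounds and developing tissue that binds integrins alpha 8 and alpha 9. It stood at 63.8, 58.7 and 71.2 TPM, a mean of 64.6 ± 6.31 TPM (SD, n = 3). ATR 3 was highest and ATR 2 lowest, as for Fn1. By reads Tnc outranked Postn, with a mean of 201 against 143 CPM, because each TPM of Tnc stands for more reads.

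Spread between the libraries was tested for each gene with a chi-square test of its reads against the scaled library sizes, adjusted by the Benjamini-Hochberg method over 13309 genes with at least 30 reads. The test compares these libraries and not conditions, and it treats duplicated reads as independent. Of 9 members tested, 7 passed an adjusted p threshold of 0.05: Fn1, Sparc, Thbs1, Spp1, Postn, Tnc and Thbs2. Among all genes tested 23.2% passed. The share depended on depth. Among genes with at least 3000 reads in all it was 39.9%, and the 6 members with that many reads (Fn1, Sparc, Thbs1, Spp1, Postn and Tnc) all passed. Thbs3 (adjusted p = 0.204) and Tgfbi (adjusted p = 0.18) did not pass, and Sparcl1 had too few reads to be tested. The same 7 members differed in each pair of libraries, beside 17.3% of genes for ATR 1 against ATR 2, 14.6% for ATR 1 against ATR 3 and 11.9% for ATR 2 against ATR 3.

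A pass did not mean a large difference. Sparc passed with an adjusted p of 7.97e-38, yet its coefficient of variation of TPM was 1.64%, and those of Thbs1 and Fn1 were 3.95% and 4.63%. The median of this measure over genes at 1 TPM or more was 6.16%. By CPM, the scale of the test, Sparc, Thbs1 and Fn1 varied by 2.80%, 5.36% and 4.99%. Sparc was lowest in ATR 2 by TPM but in ATR 1 by CPM. Counting noise alone would give 0.296% for Sparc and 0.191% for Fn1, so even small differences pass at this depth. For Spp1, Thbs3, Tnc and Tgfbi the coefficients of variation of TPM were 7.58%, 8.01%, 9.76% and 12.6%. Their counting noise was 1.06%, 4.07%, 1.62% and 8.18%. By TPM, Postn at 18.1% and Thbs2 at 59.5% were the widest of the 9 tested. By the SD of log2(CPM + 0.5), Thbs2 lay at percentile 99.5 and Postn at percentile 96.0 of the 10506 genes with a mean of 5 CPM or more, while Sparc lay at 21.9.

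**Figure D3:**
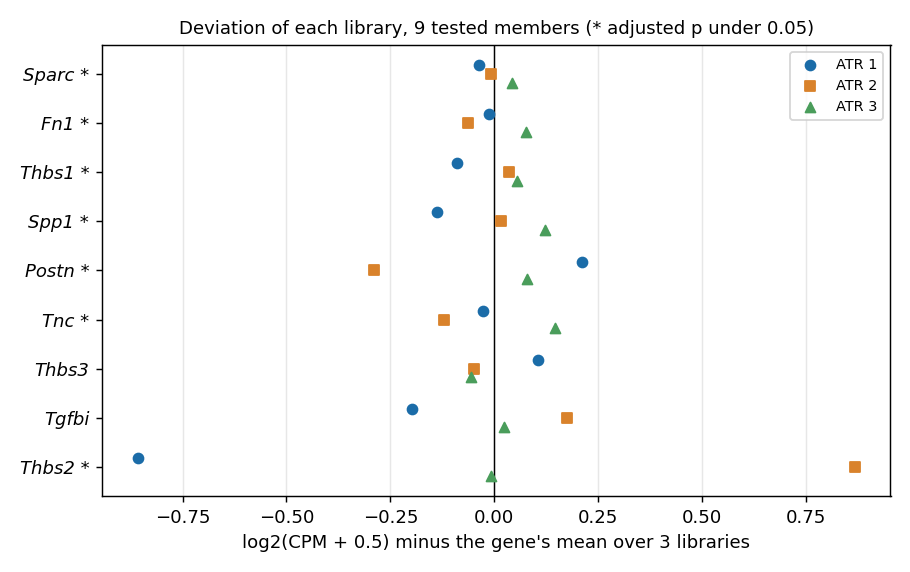
Deviation of log2(CPM + 0.5) from each gene's mean in ATR 1 (circles), ATR 2 (squares) and ATR 3 (triangles) for the 9 tested members. Asterisks mark an adjusted p under 0.05. Thbs2 spreads from -0.86 in ATR 1 to 0.87 in ATR 2, and Sparc, Fn1 and Thbs1 stay within 0.1 of 0.

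Thbs2 showed the largest difference between libraries of the tested members. It had 108, 373 and 202 reads, with ATR 2 highest and ATR 1 lowest. The scaled read ratio of ATR 2 to ATR 1 was 3.51 (exact 95% interval 2.83 to 4.39, counting error only), and that of ATR 3 to ATR 1 was 1.87 (1.48 to 2.39). Postn went the other way. Its ratio of ATR 2 to ATR 1 was 0.707 (0.669 to 0.747) and that of ATR 3 to ATR 2 was 1.29 (1.22 to 1.37). The Postn to Thbs2 ratio of TPM was accordingly 52.2, 10.5 and 25.4 in the 3 libraries.

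Stromal fibroblast markers varied between the same libraries. Of 7 markers, 4 were lowest in ATR 1 and highest in ATR 2 as Thbs2 was: Thy1, Prrx1, Pdgfra and Col1a1. That order was found in 18.9% of all genes tested. Thy1 stood at 23.2, 104 and 82.7 TPM, Prrx1 at 12.03, 47.0 and 29.2 TPM and Pdgfra at 1.36, 5.27 and 3.67 TPM. Their scaled read ratios of ATR 2 to ATR 1 were 4.64, 3.92 and 4.04, beside 3.51 for Thbs2, but that of Col1a1, the most abundant, was 1.21 (1.197 to 1.214). Col14a1, another fibroblast gene, stood at 333, 267 and 305 TPM and had the opposite order, that of Postn. Dcn had a ratio of 0.921 (0.790 to 1.07) and Lum was highest in ATR 3. The summed level of the list was 3005, 3525 and 3460 TPM, most of it Col1a1. By CPM, the order of Thbs2 was also that of 3 of 7 smooth muscle and pericyte markers (Des, Cnn1 and Notch3). It was that of 3 of 6 leukocyte markers (Cd14, Itgam and Csf1r), 1 of 7 surface epithelium markers and 0 of 7 granulosa markers tested. Notch3 (adjusted p = 0.729) and those leukocyte markers (adjusted p = 0.188 to 0.672) did not pass the spread test. By TPM, Cnn1 was lowest in ATR 3. Des, which encodes the muscle filament desmin, stood at 7.22, 20.4 and 7.69 TPM, with a ratio of ATR 2 to ATR 1 of 2.89 (2.38 to 3.53). The part of stromal, smooth muscle or other cells in the Thbs2 and Postn values was not tested.

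**Figure D4:**
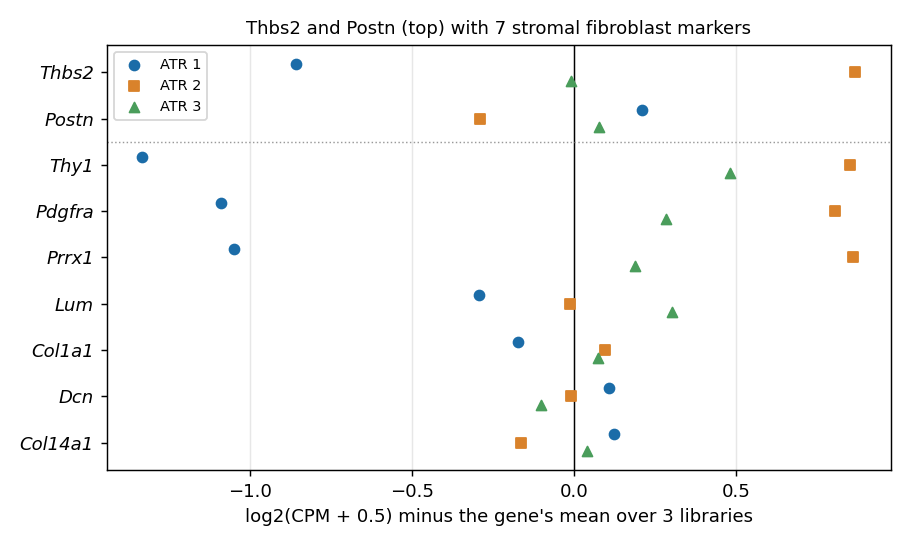
Deviation of log2(CPM + 0.5) from the gene's mean by library for Thbs2 and Postn (above the dotted line) and 7 stromal fibroblast markers. Thbs2, Thy1, Pdgfra and Prrx1 are low in ATR 1 and high in ATR 2, while Postn and Col14a1 are high in ATR 1 and low in ATR 2.

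The remaining members moved by small amounts. Fn1 was 1.10 times higher in ATR 3 than in ATR 2 (1.097 to 1.109) and Tnc 1.203 times (1.15 to 1.26). Spp1 was 1.196 times higher in ATR 3 than in ATR 1 (1.16 to 1.23), and Thbs1 1.11 times (1.097 to 1.115). Sparc was 1.06 times higher in ATR 3 than in ATR 1 (1.05 to 1.07). ATR 3 was thus the highest library by CPM for 5 of 9 tested members, and for 4255 of 13309 genes tested. For Thbs3 the ratio of ATR 3 to ATR 1 was 0.892 (0.796 to 0.999), and for Tgfbi that of ATR 2 to ATR 1 was 1.32 (1.04 to 1.67). Neither passed after adjustment in any pair of libraries.

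Most receptors of these proteins were detected, over a wide range of levels. Of 17 receptor and co-receptor genes, 16 reached a mean of 1 TPM and 7 reached 100 TPM, beside 71.4% and 10.7% of all genes. Their median was 68.9 TPM, and that of all genes was 10.1 TPM. Itgb8, Cd36, Itga4 and Itgb6 lay below the latter, at means of 3.30, 2.45, 1.57 and 0.607 TPM. The highest was Calr at 2217 ± 36.2 TPM (SD, n = 3), a chaperone of the endoplasmic reticulum that is also a thrombospondin-1 co-receptor at the cell surface. Itgb1, the beta 1 integrin chain of the fibronectin receptor, stood at 1180, 1083 and 1145 TPM. Itgb5, a partner of the alpha v chain for periostin and osteopontin, stood at 419, 422 and 414 TPM. These 4 and the receptors named next were chosen after their values were seen. The thrombospondin receptor Cd36 stood at 2.25, 2.65 and 2.46 TPM and Cd47 at 68.7, 57.8 and 62.0 TPM, so Cd47 exceeded Cd36 in each library. Cd44, a receptor of osteopontin, stood at 79.3, 88.1 and 95.2 TPM. Itga5, the alpha chain of the fibronectin receptor, stood at 59.4, 71.1 and 76.1 TPM. Among the 17, 11 passed the spread test, beside the 23.2% of all genes and the 39.9% of genes with at least 3000 reads.

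**Figure D5:**
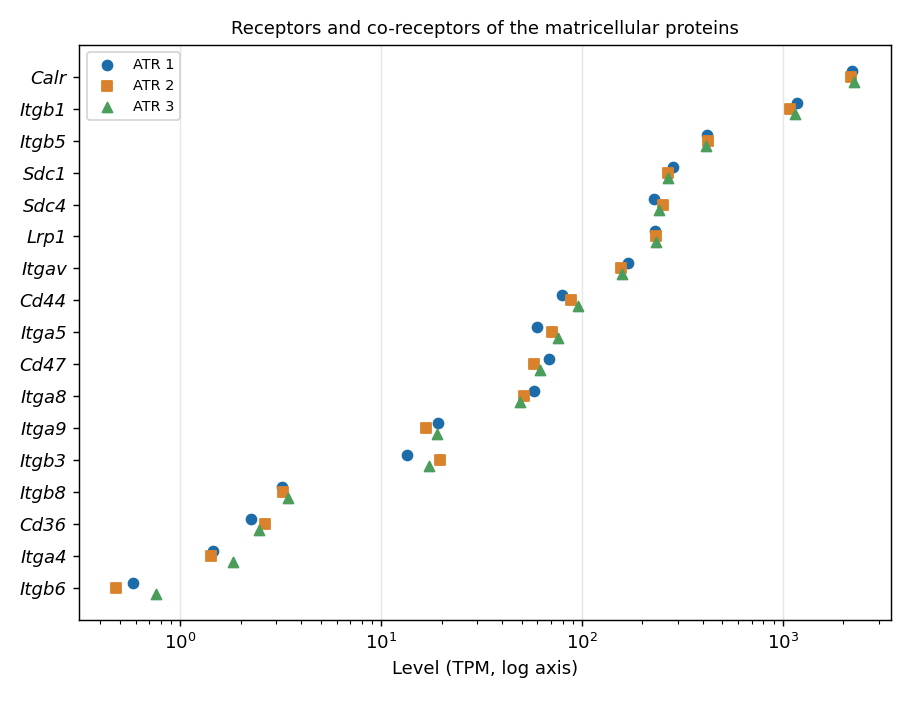
TPM (log axis) of 17 receptor and co-receptor genes in ATR 1 (circles), ATR 2 (squares) and ATR 3 (triangles), sorted by mean. Calr and Itgb1 lie above 1000 TPM in each library and Itgb6 lies at 0.48 to 0.76 TPM.

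Relatives of the members outside the set were mostly near the counting limit. Of 17 listed, 11 were found in the table and 5 reached 1 TPM. The median over those found was 0.307 TPM. The other 6 are not analysed here. Fstl1, a secreted SPARC-family protein, led at 984, 903 and 968 TPM, followed by Smoc1, another SPARC relative, at 204, 170 and 183 TPM. Spock2, a SPARC-related proteoglycan, was the third at 6.95, 12.2 and 6.22 TPM. The remaining thrombospondins were at the floor: Thbs4 had 0, 1 and 1 reads and Comp 5, 10 and 5 reads. The tenascin Tnn had 1, 3 and 1 reads. Among 5 relatives tested for spread, 4 passed, beside the 23.2% of all genes and the 39.9% of genes with at least 3000 reads.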

How the data were processed

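Polyadenylated RNA of rat granulosa cells was sequenced. The authors deposited a TPM value and an estimated count of reads per gene and library, per the file headers. Tools listed in the submitters' processing notes, with no roles, are StringTie 2.1.5, HISAT2 2.2.1 and fastp 0.20.1. The builds Rnor_6.0 (rat) and GRCm38 (mouse) are listed beside them, also with no roles. The sources used here do not say how a read was assigned to a gene. No strand-marking step is given in the labels' protocols, so antisense reads cannot be told apart. Member counts were whole numbers within 0.001 in each library, while 19.0% to 19.2% of all values were not.

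Counts were rounded, and libraries were scaled by TMM (edgeR 4.0.16, R 4.3.3). The spread test across all genes was a chi-square test, checked on simulated data. Apart from changes set in some genes, the simulated reads held counting noise alone. That check therefore cannot speak to wider variation between libraries or to duplicated reads. Read ratios carry exact (Clopper-Pearson) 95% intervals. These cover counting error only. Alternatives used library totals, DESeq2 1.42.0 size factors, other read minimums, whole counts alone, and each library left out. The planned contrast with Control was not run. Computations used Python 3.11.15 with scipy 1.17.1.

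The members, lists and tests were chosen with earlier results of these data known. The rule for named genes covers all members, the 3 highest genes of each list and the defining markers. It also barred naming a gene by likeness of pattern between libraries. Comparisons of library order with Thbs2, Spp1 and Postn depart from that rule. One entry was left out of a list and of its counts.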

Additional observations from a re-analysis of the deposited data

How the results depend on the processing

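No paired analysis was possible because values of the Control libraries are not analysed here, and the alternatives planned for its contrast with Control were not run. The count of 7 members with spread beyond counting noise stayed at 7 with library totals and with DESeq2 size factors. It was also 7 with a minimum of 1 or 100 reads and with whole counts alone. A minimum of 100 reads and whole counts could alter only the adjustment, since every tested member had whole counts and at least 448 reads. Each library left out gave 7 too, but this repeats the tests of library pairs given above. The members' share was 1.46% of TPM and 2.76% of reads, since reads follow transcript length and TPM does not. It was 1.43% to 1.47% of TPM with 1 library left out. The count of members at 1 TPM was 9, and 8 at a limit of 5 TPM. The order by mean TPM was the same with each library left out, but by CPM Fn1 and Thbs1 came before Sparc, Tnc before Postn and Thbs2 before Tgfbi. The mean of Thbs2 was 2.96 TPM without ATR 2 and 5.51 TPM without ATR 1. That of Sparcl1 was 0.10 to 0.205 TPM with 1 library left out, and 11 reads in all cannot rank the libraries.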

Other observations

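Of 12 genes that assemble, cleave or release matricellular proteins, 10 reached 1 TPM, beside 71.4% of all genes. Their median was 46.9 TPM, and that of all genes was 10.1 TPM. The membrane protease Mmp14 led with 477 TPM in ATR 1, 466 in ATR 2 and 450 in ATR 3. It was followed by Adamts1, a protease of ovulation, at 225, 250 and 217 TPM and by the proprotein convertase Furin at 199.7, 209 and 192 TPM. Of 10 tested for spread, 6 passed, beside the 23.2% of all genes and the 39.9% of genes with at least 3000 reads.

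Mmp2, Smoc2 and Tnc were picked here once their values were known. The gelatinase Mmp2 stood at 22.2, 56.5 and 35.5 TPM, and Smoc2, a SPARC relative, at 2.48, 7.28 and 5.36 TPM. Both were lowest in ATR 1 and highest in ATR 2, the order of Thbs2. By CPM, that order was found in 2 of 10 assembly and processing genes tested and 1 of 5 relatives tested. It was found in 18.9% of all genes tested. The reads per TPM of Tnc, relative to those of Sparc, were 3.27, 3.26 and 3.22, whereas those of Fn1 were 3.96 in each library.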
